A study of Mus musculus with 8 samples.

Results

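The 10 genes described here encode the skeletal muscle forms of the 3 troponin subunits and of the myosin light chains. They are the rows Tnnt1, Tnnt3, Tnni1, Tnni2, Tnnc1, Tnnc2, Myl1, Myl2, Myl3 and Mylpf of the deposited gene count table, chosen by symbol out of 35494 symbols, and all 10 were present and passed the filter on low counts. RNA was sequenced from the quadriceps, a thigh muscle, of 4 mice with subcutaneous MC38 tumours (scMC38) and 4 control mice, 1 library per mouse. All were wild-type male C57BL/6 mice, 8 weeks old when assigned to a group. The scMC38 mice carried a subcutaneous implant of MC38, a colorectal cancer cell line of the mouse, given in PBS, and the controls received an equal volume of sterile PBS, and muscle was taken after 28 days, per the labels and design text. The comparison asks how these genes differ in muscle between mice with and without the tumour, which the series title links to a mild form of cachexia.

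Troponin sits on the thin filament of the sarcomere and turns a calcium signal into contraction: troponin C binds calcium, troponin I blocks the binding of myosin to actin at rest, and troponin T ties the complex to tropomyosin. Myosin heads each carry an essential and a regulatory light chain on the lever arm. Slow (type I) fibres and fast (type II) fibres use separate genes for each of these parts. The slow set is Tnnt1, Tnni1, Tnnc1, Myl2 (regulatory) and Myl3 (essential), of which Tnnc1, Myl2 and Myl3 are also the forms of the heart ventricle. The fast set is Tnnt3, Tnni2, Tnnc2, Mylpf (regulatory) and Myl1 (essential). Mouse quadriceps is mostly a fast muscle.

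Of the 10 genes, 8 had an upstream window in the RefSeq promoter table, which is on GRCm38.p6, whereas the submitters' processing notes name GRCm39. Tnnt3 and Tnni2 had none. Shown are the 250 bases before the start of 3 slow genes with a single window, whose levels followed nearly the same order over the mice, and of the 2 fast light chain genes, which had the largest differences between groups among the fast genes. Capitals mark matches, on either strand, to the E-box CANNTG, the MCAT motif CATTCC, the TATA motif TATAAA, the MEF2 motif and the CArG motif.
Tnnt1 (chr7:4515976-4516225, - strand): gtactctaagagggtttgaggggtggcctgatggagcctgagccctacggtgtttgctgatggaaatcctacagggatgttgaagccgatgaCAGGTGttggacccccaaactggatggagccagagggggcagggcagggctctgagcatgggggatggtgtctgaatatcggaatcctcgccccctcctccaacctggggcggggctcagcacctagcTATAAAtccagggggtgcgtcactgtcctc
Tnnc1 (chr14:31208062-31208311, + strand): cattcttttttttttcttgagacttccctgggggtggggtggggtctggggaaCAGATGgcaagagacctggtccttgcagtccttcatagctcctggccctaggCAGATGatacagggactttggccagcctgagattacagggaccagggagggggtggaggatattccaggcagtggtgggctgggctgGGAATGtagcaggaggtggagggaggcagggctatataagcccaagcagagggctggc
Myl3 (chr9:110763428-110763677, + strand): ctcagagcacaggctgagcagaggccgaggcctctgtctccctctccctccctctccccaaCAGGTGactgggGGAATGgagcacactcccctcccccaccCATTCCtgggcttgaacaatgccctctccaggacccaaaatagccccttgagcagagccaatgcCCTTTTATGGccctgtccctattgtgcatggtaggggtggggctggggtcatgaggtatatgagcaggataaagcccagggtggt
Mylpf (chr7:127211358-127211607, + strand): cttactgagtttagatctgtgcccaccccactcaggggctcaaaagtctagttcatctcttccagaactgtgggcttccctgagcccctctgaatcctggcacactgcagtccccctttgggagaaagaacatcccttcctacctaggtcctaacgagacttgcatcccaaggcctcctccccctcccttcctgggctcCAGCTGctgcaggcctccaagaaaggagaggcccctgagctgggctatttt
Myl1 (chr1:66945057-66945306, - strand): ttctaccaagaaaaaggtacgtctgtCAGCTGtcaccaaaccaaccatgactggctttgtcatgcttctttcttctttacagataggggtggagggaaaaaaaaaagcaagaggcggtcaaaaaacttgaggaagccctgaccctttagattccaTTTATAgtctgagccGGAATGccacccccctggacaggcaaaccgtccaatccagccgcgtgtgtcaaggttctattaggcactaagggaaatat
An E-box was present in each of these windows and in 66.2% of the 32851 promoter windows of the table. MCAT was found in Tnnc1, Myl3 and Myl1 and in 12.6% of all windows. TATAAA was found 30 bases before the start in Tnnt1, on the other strand in Myl1, and in 12.4% of all windows. The CArG motif, held by 1.47% of windows, was found in Myl3, 85 bases before the start. No MEF2 motif lay in the windows of the 8 genes, against 2.92% of all windows. These are matches of letters and say nothing of whether a factor binds.

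Library totals were 50.5 to 62.1 M counts. Skeletal muscle fibre markers, which check the tissue label, were high in every library: 7 of 7 were tested and none was called, with a summed level of 56991 to 71096 CPM (counts per M counts, with libraries scaled by the TMM method of edgeR) in controls and 51843 to 74940 CPM in scMC38. Libraries scMC38 1 and 3 stood apart. In them the 5 marrow progenitor markers summed to 45.5 and 398 CPM, against at most 0.355 CPM elsewhere, and the 7 bone cell markers to 48.6 and 252 CPM, against at most 2.29 CPM elsewhere. The 7 neutrophil markers, of which none was called, summed to 426, 9.93, 3854 and 30.9 CPM in scMC38 1 to 4 and to 0.692 to 6.88 CPM in controls, so every scMC38 library lay above every control. Control 1 and control 2 had the highest mitochondrially encoded share of counts, 24.3% and 29.7%, against 14.4% to 18.9% in the other libraries.

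The fast genes made up nearly all of the signal of the 10. Together they took 4.10% to 5.56% of all counts of a library, and the slow genes 4.37e-05% to 0.064%. Per kilobase of transcript (median length of the coding transcripts in GENCODE M21), the mean control level was highest for Tnnt3, at 16558 ± 1527 CPM per kb (SD, n = 4). Myl1 (11903 ± 2413), Mylpf (11834 ± 1916) and Tnnc2 (11513 ± 1271) followed and did not differ beyond their spread. Tnni2 stood at 9752 ± 526 CPM per kb. Among the slow genes the mean control level per kb ran from 15.7 ± 24.1 (Tnni1) to 162 ± 232 CPM per kb (Myl3), with an SD above the mean for each gene, so no order among them could be read from the means.

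None of the 10 genes passed the test between groups (edgeR quasi-likelihood test, Benjamini-Hochberg adjusted p under 0.05), with 0 higher and 0 lower. Over all 14112 genes tested, 1.20% were called, 0.737% higher and 0.468% lower. At an unadjusted p under 0.05 stood 2 of the 10, Myl1 and Mylpf, against 21.0% of all genes. The median log2 fold change was -2.02 for the slow genes and -0.19 for the fast genes, and 0.0009 over all tested genes. In none of the 10 were the groups free of overlap, against 13.3% of all genes, of which 6.82% lay higher and 6.45% lower in every scMC38 library than in every control. DESeq2 called Myl1 lower (adjusted p = 0.0211) and no other of the 10. Of the 14112 genes it called 829 higher and 597 lower, far more than edgeR did.

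**Figure D1:**
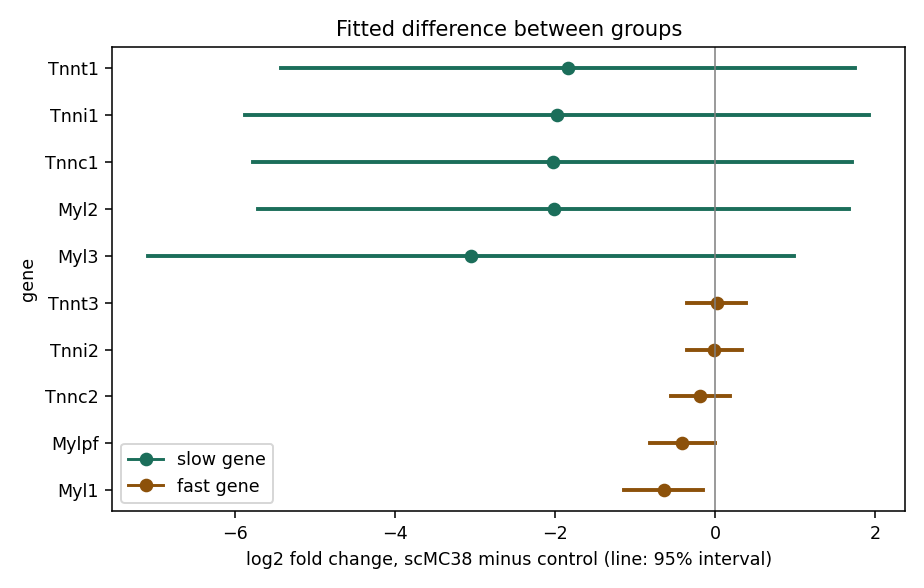
Log2 fold change (scMC38 minus control) of the 10 genes from the edgeR fit, with the 95% interval as a line. The intervals of the slow genes span several log2 units and include 0, and those of the fast genes are narrow, with Myl1 at -0.65 and Mylpf at -0.41.

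The slow genes differed far more between mice of the same group than between groups. Tnnt1, the slow troponin T that ties the complex to tropomyosin, was at 3.45, 106, 30.4 and 0.164 CPM in controls 1 to 4 and at 23.4, 0.246, 2.76 and 12.8 CPM in scMC38 1 to 4. Control 2 was the highest and control 4 the lowest of all 8, so the controls enclosed the scMC38 range. In counts, these 2 libraries held 5759 and 9 reads of Tnnt1. The fitted log2 fold change was -1.84 (SE 1.57, adjusted p = 0.527), with a 95% interval from -5.43 to 1.75.

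Tnni1, the slow inhibitory subunit, was at 0.887, 53.1, 11.2 and 0.0546 CPM in controls 1 to 4 and at 11.0, 0.0189, 0.470 and 5.08 CPM in scMC38 1 to 4. Control 4 and scMC38 2 again formed the low end, here with 3 counts (exact Poisson 95% interval 0.619 to 8.77) and 1 count (0.0253 to 5.57). These intervals cover counting error only. The calcium sensor Tnnc1 was at 2.19, 79.4, 19.8 and 0.0728 CPM in controls 1 to 4 and at 14.4, 0.132, 0.854 and 9.36 CPM in scMC38 1 to 4. Their log2 fold changes were -1.98 (SE 1.70, adjusted p = 0.531) for Tnni1 and -2.03 (SE 1.63, adjusted p = 0.501) for Tnnc1.

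Myl2, the slow regulatory light chain, was at 8.20, 157, 36.0 and 0.0546 CPM in controls 1 to 4 and at 22.6, 0.151, 5.43 and 21.5 CPM in scMC38 1 to 4. Its log2 fold change was -2.02 (SE 1.61, adjusted p = 0.498). Myl3, the slow essential light chain, was at 25.9, 310, 61.4 and 0.0910 CPM in controls 1 to 4 and at 19.9, 0.341, 1.14 and 26.5 CPM in scMC38 1 to 4. It had the largest fitted difference of the 10, -3.06 (SE 1.76, adjusted p = 0.350), with an interval from -7.09 to 0.98. In each slow gene the groups overlapped throughout, and control 2 was the highest of the 8 libraries.

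The order of the mice was nearly the same in the 5 slow genes. In Tnnt1, Tnnc1 and Myl2 it ran, from high to low, control 2, control 3, scMC38 1, scMC38 4, control 1, scMC38 3, scMC38 2, control 4. Tnni1 differed from this only in the order of the last 2, and Myl3 only in that scMC38 1 stood below scMC38 4 and control 1. Their spread was also among the widest of all genes: the SD of log2 CPM over the 8 libraries was 3.23 for Tnnt1, with 21 of the 14112 tested genes wider, and 3.91 for Myl3, with 7 wider. In bulk muscle, fewer slow fibres in the sample and less slow mRNA per fibre cannot be told apart.

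**Figure D2:**
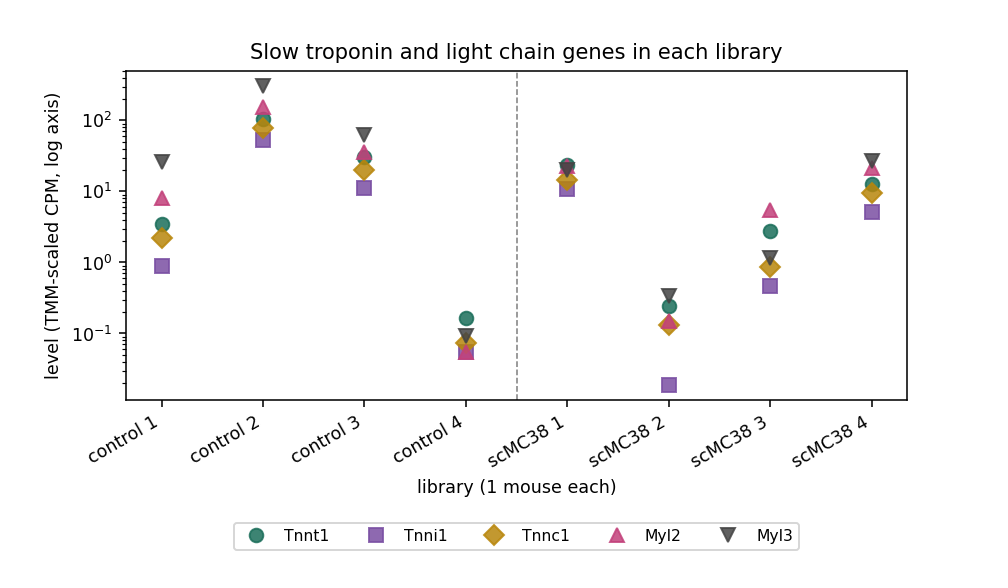
Level of the 5 slow genes (TMM-scaled CPM, log axis) in each of the 8 libraries, with 1 symbol per gene and a dashed line between the groups. Control 2 is highest and control 4 and scMC38 2 lowest for each gene, so both ends of the range lie among the controls for all but Tnni1, whose lowest value is in scMC38 2.

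Control 2 set much of the fitted difference. Without it, the log2 fold change was -0.21 for Tnnt1, 0.03 for Tnni1, -0.25 for Tnnc1, -0.25 for Myl2 and -1.29 for Myl3. Without scMC38 1 and 3, the slow genes stood between -2.86 (Myl3) and -2.19 (Myl2), none called (adjusted p from 0.593 to 0.674). Control 2 was also the library with the highest mitochondrially encoded share, 29.7%, and its part in the slow gene values was not tested.

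The slow genes did not keep a constant ratio to each other. Myl3 counts per Tnnt1 count were 7.51, 2.92, 2.02 and 0.556 in controls 1 to 4 and 0.852, 1.38, 0.412 and 2.07 in scMC38 1 to 4. Control 1 and scMC38 3 had similar Tnnt1 levels, 3.45 and 2.76 CPM, but differed in Myl3, 25.9 against 1.14 CPM. Myl3 per Myl2 count, the 2 slow light chains, was 1.67 to 3.16 in controls and 0.210 to 2.25 in scMC38, lowest in scMC38 3 and with overlap. Tnnc1 per Tnnt1 count was steadier, at 0.444 to 0.747 in controls and 0.309 to 0.732 in scMC38. The lowest libraries hold few counts, so their ratios are uncertain.

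Set against their fast counterparts within each library, the slow genes were rare in every mouse. The 5 slow genes together gave 893, 15590, 2851 and 7.86 counts per M counts of the 5 fast genes in controls 1 to 4, and 2195, 17.1, 296 and 1633 in scMC38 1 to 4. The groups overlapped, with control 2 highest and control 4 lowest. On the log2 scale the ratio was -10.39 ± 4.70 in controls and -11.41 ± 3.21 in scMC38 (SD, n = 4), a difference of -1.03, and of -2.16 without scMC38 1 and 3. Single libraries set its size and sign: it was -3.22 without control 4, 0.43 without control 2 and 0.45 without scMC38 2. The 5 separate pairs (Tnnt1 to Tnnt3, Tnni1 to Tnni2, Tnnc1 to Tnnc2, Myl2 to Mylpf, Myl3 to Myl1) differed by -0.26 to -1.44, each with an SD of at least 2.99 within a group and with overlapping groups. These are differences of mean log ratios and weigh each mouse alike, whereas the fitted fold changes above weigh the high control 2 more.

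The fast troponins T and I had like mean levels in both groups. Tnnt3, the fast troponin T, was at 15590, 15420, 18645 and 17438 CPM in controls 1 to 4 and at 16386, 19124, 13874 and 18442 CPM in scMC38 1 to 4. The scMC38 libraries included the highest and the lowest value. Its log2 fold change was 0.02 (SE 0.16, adjusted p = 0.969), with a 95% interval from -0.35 to 0.38, or 0.783 to 1.30 times the control level. Tnni2, the fast inhibitory subunit, was at 6895, 7152, 7825 and 7386 CPM in controls 1 to 4 and at 6901, 8156, 5808 and 8143 CPM in scMC38 1 to 4. Its log2 fold change was -0.01 (SE 0.15, adjusted p = 0.974, interval -0.36 to 0.33), and 0.08 when libraries were scaled by total counts. Without scMC38 1 and 3 the values were 0.18 for Tnnt3 (adjusted p = 0.666) and 0.18 for Tnni2 (adjusted p = 0.621).

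Tnnc2, the fast calcium sensor, was at 7257, 7338, 8664 and 8978 CPM in controls 1 to 4 and at 6552, 8358, 5817 and 7514 CPM in scMC38 1 to 4. The groups overlapped, with the lowest 2 values in scMC38 1 and 3. Its log2 fold change was -0.19 (SE 0.16, adjusted p = 0.525), and -0.0027 without these 2 libraries (adjusted p = 0.995).

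The mean levels of the fast light chains were lower in scMC38, a difference that did not pass the test over all genes. Myl1, the gene of the fast essential light chains, was at 8264, 8372, 10859 and 12426 CPM in controls 1 to 4 and at 5667, 8666, 5244 and 5918 CPM in scMC38 1 to 4. In 3 of the scMC38 libraries the level was below every control, and scMC38 2 lay within the control range. Its mean was 9980 ± 2023 CPM in controls and 6374 ± 1553 CPM in scMC38 (SD, n = 4), with a fitted log2 difference of -0.65 (SE 0.22, unadjusted p = 0.0161, adjusted p = 0.147 by edgeR). The 95% interval ran from -1.14 to -0.15. Counts are summed over the transcripts of a gene, so the long and short forms of the Myl1 protein cannot be told apart. A pseudogene row named Mylf-ps held 96 to 198 counts in a library, too few to bear on the 300408 to 682407 counts of Myl1.

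Mylpf, the fast regulatory light chain, was at 7477, 7002, 9749 and 9357 CPM in controls 1 to 4 and at 6109, 7824, 5309 and 6013 CPM in scMC38 1 to 4. As with Myl1, the value of scMC38 2 lay within the control range and the other scMC38 values below it. The log2 fold change was -0.41 (SE 0.18, unadjusted p = 0.0488, adjusted p = 0.235). Without scMC38 1 and 3 together, the libraries with marrow and bone markers, the values were -0.43 for Myl1 (adjusted p = 0.436) and -0.26 for Mylpf (adjusted p = 0.596). Library scMC38 4, where the marrow markers summed to 0.355 CPM and the bone markers to 2.25 CPM, had 5918 CPM of Myl1 and 6013 CPM of Mylpf, below every control, but its neutrophil markers, at 30.9 CPM, were above every control. The 6 markers of developing or regenerating fibres, of which none was called, summed to 79.7, 151, 546 and 721 CPM in controls 1 to 4 and to 134, 202, 75.3 and 68.3 CPM in scMC38 1 to 4. The sum was highest in controls 4 and 3, where Myl1 and Mylpf were also highest. Within scMC38 it was highest in scMC38 2, the library in the control range for both genes. The markers did not move as a set. Tnnt2 and Myl4, which are among them, were lowest of the 8 libraries in control 4, at 0.164 and 1.31 CPM. Within scMC38 both were lowest in scMC38 2, at 0.416 and 1.89 CPM. The part of the neutrophil and developing fibre markers in the light chain levels and in the ratios that follow was not tested.

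**Figure D3:**
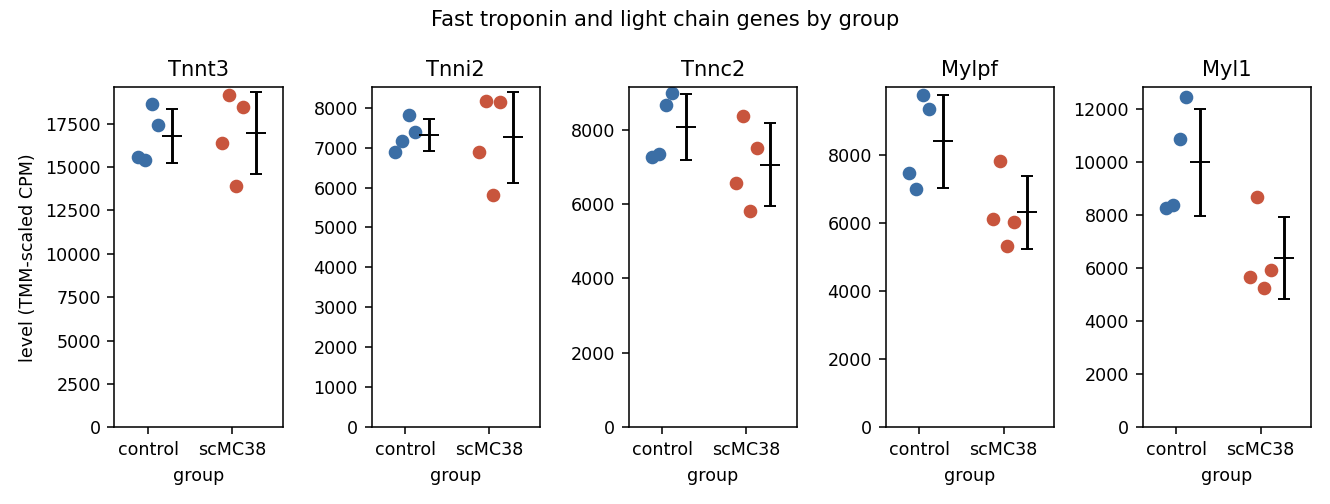
Level of the 5 fast genes (TMM-scaled CPM, axes from 0) with 1 point per mouse, and the mean and SD of each group of 4 as a bar. Tnnt3 and Tnni2 have like means in both groups, and in Mylpf and Myl1 all scMC38 points but that of scMC38 2 lie below the controls.

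Ratios between fast genes inside a library do not depend on how libraries are scaled, and here the groups separated in most of them. They were looked at after the levels had been seen and are given without a test. Myl1 counts per Tnnt3 count were 0.530, 0.543, 0.582 and 0.713 in controls 1 to 4 and 0.346, 0.453, 0.378 and 0.321 in scMC38 1 to 4. Every scMC38 value was below every control value, including scMC38 2, and scMC38 4 was the lowest. On the log2 scale the mean ratio was -0.77 ± 0.19 in controls and -1.43 ± 0.21 in scMC38 (SD, n = 4), a difference of -0.66, and -0.62 without scMC38 1 and 3.

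Mylpf per Tnnt3 count was 0.480, 0.454, 0.523 and 0.537 in controls 1 to 4 and 0.373, 0.409, 0.383 and 0.326 in scMC38 1 to 4, a log2 difference of -0.42 (-0.45 without scMC38 1 and 3). Tnnc2 per Tnnt3 count was 0.465, 0.476, 0.465 and 0.515 in controls 1 to 4 and 0.400, 0.437, 0.419 and 0.407 in scMC38 1 to 4, a log2 difference of -0.21. These ratios also did not overlap between groups. Tnni2 per Tnnt3 count, which sets the 2 fast troponins T and I against each other, did overlap, at 0.420 to 0.464 in controls and 0.419 to 0.442 in scMC38 (log2 difference -0.03).

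Of the 10 ratios among the 5 fast genes, 8 were lower in scMC38 with no overlap. The exceptions were Tnni2 to Tnnt3 and Myl1 to Mylpf, of which the latter was 1.11 to 1.33 in controls and 0.928 to 1.11 in scMC38 (log2 difference -0.24). Some of the 8 nearly touched, with the lowest control value in control 2 and the highest scMC38 value in scMC38 2. These values were 1.03 and 1.02 for Tnnc2 to Tnni2, 0.979 and 0.959 for Mylpf to Tnni2, and 0.954 and 0.936 for Mylpf to Tnnc2. Among the 2775 pairs of 75 other genes with a mean of at least 1000 CPM, 17.4% did not overlap. The 10 ratios share 5 genes and 8 libraries and are not independent of each other. Relative to Tnnt3 and Tnni2, whose ratio overlapped between groups, Tnnc2 was lower in scMC38, and relative to Tnnc2 both Mylpf and Myl1 were lower. A ratio shows unequal change only and does not say which of its genes changed.

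**Figure D4:**
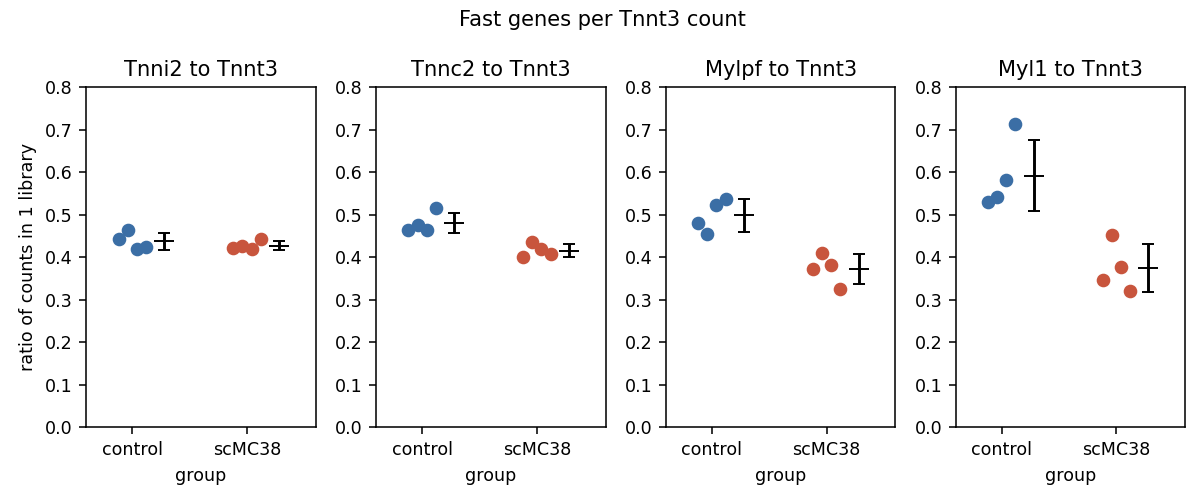
Counts of Tnni2, Tnnc2, Mylpf and Myl1 per Tnnt3 count in each library, with the mean and SD of each group of 4 as a bar. Tnni2 overlaps between groups, and for the others each scMC38 point lies below each control point, from 0.321 to 0.453 against 0.530 to 0.713 for Myl1.

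Other genes of the slow and fast programmes gave the setting. Of 15 slow programme partners, a list that also holds the type IIA gene Myh2, 0 were called in either direction. A negative log2 fold change was found in 14 of them, and in 7034 of all 14112 genes tested. The median of the list was -0.74. For most of these partners control 2 was the highest library. Myh7, the slow myosin heavy chain, was at 2.19, 185, 76.5 and 0.0546 CPM in controls 1 to 4 and at 73.5, 0.0378, 0.940 and 29.3 CPM in scMC38 1 to 4. Control 2 was the highest, and control 4 and scMC38 2 were near 0 with 3 and 2 counts, as for the slow troponins. Its log2 fold change was -1.35 (adjusted p = 0.719), and -0.017 without control 2. Myh2, the heavy chain of type IIA fibres, ranged from 9.43 to 2296 CPM in controls and from 84.8 to 561 CPM in scMC38 (log2 fold change -1.65, adjusted p = 0.462, and -0.90 without control 2), again lowest in control 4 and highest in control 2. The slow reticulum calcium pump Atp2a2 stood at -0.74 (adjusted p = 0.441) and the slow tropomyosin gene Tpm3 at -0.32 (adjusted p = 0.763), and without control 2 they stood at -0.035 and 0.43. The smallest p in this list belonged to the calcium pump inhibitors Pln (-0.73, adjusted p = 0.226) and Sln (0.85, adjusted p = 0.349), both with means under 2 CPM in each group.

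Of 10 fast programme partners, 0 were called by edgeR, 6 were negative, and the median log2 fold change was -0.11. Casq1, the calcium store protein calsequestrin, was at 2323, 2099, 3406 and 3094 CPM in controls 1 to 4 and at 1730, 2070, 1181 and 1636 CPM in scMC38 1 to 4. Its groups did not overlap, with scMC38 lower, as for 6.45% of all genes tested, although 2099 in control 2 and 2070 in scMC38 2 were close. The log2 fold change of Casq1, -0.72, did not pass by edgeR (adjusted p = 0.124), whereas DESeq2 called it lower (adjusted p = 0.012), as it did 597 of the 14112 genes. Myoz3, a Z-disc protein of fast fibres, stood at -0.47 (adjusted p = 0.231). The fast heavy chain Myh4 (0.24, adjusted p = 0.700), Myh1 (-0.21, adjusted p = 0.879), the fast calcium pump Atp2a1 (0.16, adjusted p = 0.655) and the tropomyosin genes Tpm1 (-0.14, adjusted p = 0.740) and Tpm2 (-0.38, adjusted p = 0.360) did not pass either. Myh4 was lowest in control 2, at 16229 CPM against 25906 to 46231 CPM in the other libraries. Myh1, like Myh2, was highest in control 2 and lowest in control 4, at 5306 and 386 CPM. Without control 2 the log2 fold change was 0.016 for Myh4 and 0.31 for Myh1.

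**Figure D5:**
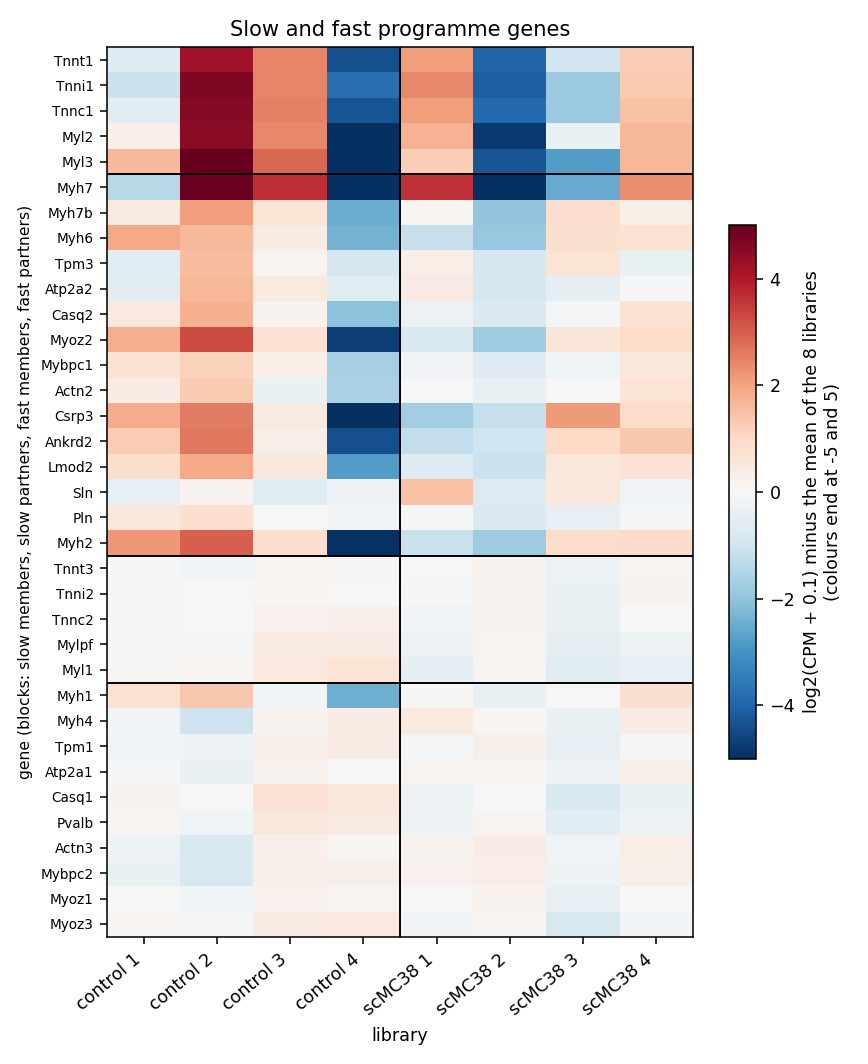
Level of the slow genes, their 15 partners, the fast genes and their 10 partners (rows, in 4 blocks) in the 8 libraries (columns), as log2(CPM + 0.1) minus the mean of the gene over the libraries, with colours ending at -5 and 5. The slow genes, Myh7 and Myh2 are high in control 2 and low in control 4 and scMC38 2, and the fast genes vary little on this scale.

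The heart and embryonic relatives of the 10 genes named here were low. Tnni3, the heart troponin I, had 2 to 13 counts per library, and Myl7, an atrial light chain, was at 0 counts in every library but scMC38 2, which had 1. The 6 heart muscle markers summed to 0.382 to 3.80 CPM in controls and 0.606 to 2.17 CPM in scMC38, with Nppa at 0 counts in all libraries. Tnnt2, a heart and embryonic troponin T, was at 0.164 to 2.14 CPM in controls and 0.416 to 1.30 CPM in scMC38. Myl4, the embryonic and atrial essential light chain, was at 1.31 to 3.66 CPM in controls and 1.89 to 3.27 CPM in scMC38. Of the 10 related paralogs, 8 were tested and 0 called, with a median log2 fold change of -0.27. The smallest p belonged to Myl9, a smooth muscle regulatory light chain (34.8 ± 6.47 CPM in controls and 24.3 ± 4.79 CPM in scMC38, SD, n = 4, log2 fold change -0.52, adjusted p = 0.155), and to Myl6b (-0.29, adjusted p = 0.432). The 5 smooth muscle markers summed to 166 to 229 CPM in controls and 122 to 148 CPM in scMC38, with 1 of them called, and their part in the Myl9 value was not tested.

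The genes most like the fast set over the 8 libraries, among 3552 other genes whose log2 CPM averaged 5 or more, were Tmod4, Map2k2, Sh3bgr, Ank1, Aamdc and Ubac1, with Pearson r from 0.97 to 0.98 to the mean log2 CPM of the 5 fast genes and Spearman rho from 0.90 to 1. Those most like the slow set were Snrpd3, Tcap, Mul1, 3425401B19Rik, Mcu and Atp2a2, with r from 0.87 to 0.90 and rho from 0.81 to 0.95. Of these 12, Ank1 had the largest difference between groups among the genes like the fast set (log2 fold change -0.47, adjusted p = 0.175), and none was called. Pearson r does not reflect how widely a gene varied. In controls, Snrpd3 ran from 38.8 to 58 CPM and Atp2a2 from 39.1 to 192 CPM, against 0.164 to 106 CPM for Tnnt1. The r and rho values describe 8 libraries that share the scaling and are given without a test. Each r is among the highest of 3552 genes over 8 libraries, where unrelated genes can also reach a high r. The cutoff left out genes at the level of the slow set itself, whose log2 CPM averaged 0.78 (Tnni1) to 2.98 (Myl3). Among those left out was Myh7, whose libraries ran in the same order as those of Tnni1.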

How the data were processed

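Quadriceps RNA of 8 mice was isolated with a column kit and made into mRNA-seq libraries (Universal Plus mRNA-seq, Nugen/Tecan), per the labels. Salmon 1.10.3, fastp 1.0.1, R 4.4.3 and the build GRCm39 are listed in the submitters' processing notes, without roles; which annotation and strand setting were used is not stated there. The values the authors deposited are estimated counts for each gene, unscaled; 49.3% of nonzero values carry a fraction. Salmon shares reads among similar transcripts by a model, so values of near-identical copies are uncertain. Groups came from sample titles and columns from library names.

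Rows without a symbol (144 of 35667, at most 0.00403% of a library) were left out, rows of 26 repeated symbols were summed and the expected counts were rounded. edgeR 4.0.16 in R 4.3.3 was run with filterByExpr defaults (minimum count 10, total 15), TMM and the robust quasi-likelihood test of scMC38 minus control without covariates, with Benjamini-Hochberg adjustment over 14112 genes. The script was tested on simulated data. Standard errors are those implied by the F statistic, and log2 CPM for likeness carries a prior count of 2. Libraries of a group differed far beyond counting noise (chi-square per degree of freedom 63.2 to 480), so each counted as 1 replicate, and precision is set by the variation among mice. The biological coefficient of variation was 27.3% as a common value over all genes tested. Over the 8 libraries, the plain coefficient of variation of CPM ran from 159% (Tnnt1) to 188% (Myl3) in the slow genes. In the fast genes it ran from 10.8% (Tnni2) to 31.2% (Myl1). Alternatives were other scalings, filters, DESeq2 1.42.0, a replicate block and fits without single or paired libraries. The genes, lists and libraries left out were chosen with earlier results of these data known. Named are the 10 genes, the called members of each list or else the 2 with the smallest p, 9 fibre type genes and the 6 genes most like each set; a gene that the rule selects is not reported here. Casq1, Myh7, Myh2 and Myh1 values by library were chosen after they were seen. So were the Tnnt2, Tnni3, Myl4 and Myl7 levels, the Snrpd3 and Atp2a2 ranges and the fast gene ratios.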

Additional observations from a re-analysis of the deposited data

How the results depend on the processing

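None of the 10 genes was called by edgeR under any of the 17 alternatives run with it, and DESeq2 called 0 higher and 1 lower, Myl1. Over all genes the counts moved: 216 higher with total counts (shift of the median 0.11 on the log2 scale, 80.9% of calls higher against 61.2%), 69 higher with no filter, 829 higher and 597 lower with DESeq2, 25 and 39 without scMC38 1 and 3, and 0 and 0 without control 1 and 2 or without control 2 and 4 (a choice made after seeing the data). With 1 library left out they ran from 1 to 59 higher and from 1 to 52 lower, lowest without control 1. Libraries with the same replicate number were not alike (correlation of deviations -0.281 to -0.006), which cannot show whether the mice were paired. A replicate block gave 0 higher and 1 lower.

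Myl1 kept a negative log2 fold change in the 18 alternatives (-0.88 to -0.43), as did Mylpf (-0.61 to -0.26). Tnnt3 changed sign without control 1 and 2 (-0.10) and without control 2 and 4 (-0.018), and ran from -0.046 to 0.10 with 1 library left out. Tnni2 changed sign with total counts (0.08) and without scMC38 1 and 3 (0.18), and ran from -0.074 to 0.080 with 1 library left out. Tnni1 ran from -3.15 to 0.031. Among the other named genes, Myh1 turned positive with the replicate block (0.10) and without control 1 and 2 (1.06), the latter also turning Myh2 (0.28), Myh4 (-0.12) and Tpm3 (0.32). Tpm3 stood at 0.24 without control 2 and 4, and without scMC38 1 and 3 Tpm1 stood at 0.053 and Sln at -0.15. With 1 library left out, Myh1 ran from -0.57 to 0.31 and Tpm3 from -0.62 to 0.43. The cause was not tested.

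The summed slow-to-fast log2 difference ran from -3.22 (without control 4) to 0.45 (without scMC38 2) with 1 library left out, was 0.43 without control 2 and reached 1.29 without control 1 and 2, so it has no stable size or sign. The Myl1 to Tnnt3 log2 difference stayed between -0.79 and -0.57. The few counts of slow genes in control 4 and scMC38 2 limit their values there.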

Other observations

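Of 31 regulators of fibre type, 0 were called in either direction and the median log2 fold change was -0.02. Rcan1, an inhibitor and transcriptional target of calcineurin, came closest: it was at 88.8, 125, 59.5 and 111 CPM in controls 1 to 4 and at 45.2, 49.4, 43.0 and 48.3 CPM in scMC38 1 to 4. Every scMC38 library was below every control, as for 6.45% of all genes tested, and the log2 fold change was -1.05 (adjusted p = 0.0533 by edgeR). It passed with total counts (adjusted p = 0.0470), without control 3 (0.0462) and by DESeq2 (9.8e-05), and its adjusted p ranged up to 0.309 over the alternatives. Sox6, a repressor of slow genes (-0.02, adjusted p = 0.965), and Prox1, which is linked to the slow programme (-0.05, adjusted p = 0.934), were chosen after their values were seen.

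Of 7 kinase and phosphatase genes for the regulatory light chain, 0 were called by edgeR, with a median log2 fold change of 0.06. Mylk2, the skeletal muscle light chain kinase, was at 982 ± 223 CPM in controls and 1180 ± 194 CPM in scMC38 (SD, n = 4, log2 fold change 0.26, adjusted p = 0.462 by edgeR). Mylk, the smooth muscle and non-muscle kinase, was at 33.3 ± 2.99 CPM and 25.9 ± 3.06 CPM (-0.36, adjusted p = 0.113 by edgeR). DESeq2 called Mylk lower (adjusted p = 0.0369), as it did 597 of the 14112 genes.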
